A study of Rattus norvegicus with 36 samples.

Results

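miR-490 was measured as its 2 mature arms, rno-miR-490-3p and rno-miR-490-5p, which were taken by name as 2 of the 723 mature rat miRNAs in the count table. Both arms were counted in all 36 libraries, and both were among the 457 miRNAs that passed the filter on low counts. The miRNA was selected on its regional counts in these same libraries, which were higher in cortex than in the nucleus accumbens, so its regional levels are given as a description and without a test. The comparisons between cocaine groups were not used to pick it and were tested.

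The study sequenced small RNA from the infralimbic cortex (IL), the prelimbic cortex (PL) and the nucleus accumbens (NAc) of 12 male heterogeneous stock (HS) rats, an outbred stock. Abstinence rats (4 rats) had self-administered cocaine intravenously and then went through 4 weeks of forced abstinence, and withdrawal rats (4 rats) were killed after a short withdrawal that the sample labels give as 16 h and the study's methods as 18 h. Naïve rats (4 rats) were age-matched to the others at the start of self-administration, had no cocaine, and were not described as having had catheter surgery. Ages at death were not given, and the 4 weeks of abstinence came on top in the abstinence rats only. Both cocaine groups had pressed on a fixed ratio 1 schedule for 0.5 mg/kg cocaine per infusion, over 10 sessions of 2 h and then 14 sessions of 6 h. Both also had behavioral tests that included a progressive ratio and contingent foot shock. The regions were cut by hand from frozen sections, the NAc was taken whole without separating core and shell, and each library is bulk tissue, in which fewer cells of a type and less RNA per cell cannot be told apart.

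A miRNA gene is transcribed into a hairpin, which is cut in the nucleus and then in the cytoplasm into a short duplex, and 1 strand of the duplex usually stays in an Argonaute protein and pairs with target mRNAs through its seed. The gene of miR-490 lies within Chrm2, which encodes the M2 muscarinic acetylcholine receptor, an inhibitory G protein-coupled receptor known as an autoreceptor on cholinergic terminals and as the main muscarinic receptor of the heart. In the RefSeq annotation of the rat assembly GRCr8, Mir490 overlapped no gene other than Chrm2 and lay on the same strand. Chrm2 mRNA was not measured in these libraries.

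The mature sequences are shown because the seed, in capitals (bases 2 to 8 from the 5′ end), decides which targets a miRNA can pair with. The hairpin follows with both arms in capitals, since the arms are compared below. All are from RefSeq (GRCr8).
rno-miR-490-3p: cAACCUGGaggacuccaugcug
rno-miR-490-5p: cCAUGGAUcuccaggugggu
Mir490 hairpin: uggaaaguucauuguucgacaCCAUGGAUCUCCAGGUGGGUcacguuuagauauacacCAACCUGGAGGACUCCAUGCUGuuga

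The 3p arm is 22 bases long and took up bases 59 to 80 of the 84-base hairpin. The 5p arm is 20 bases long and took up bases 22 to 41. In the fold that RNAfold predicted for the hairpin (minimum free energy −32.3 kcal/mol), 16 base pairs joined the arms, 17 bases lay between them, and 6 of the 7 seed bases of the 3p arm were paired. A RefSeq sequence was found for 645 of the 723 miRNAs in the count table, and 0 of them shared the seed of either arm. Among the miRNAs with a sequence, no seed family member was therefore available to set beside miR-490 in these libraries.

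Library totals ran from 6192155 to 18877136 counts with a median of 10739454, and the RNA integrity number (RIN) ran from 7.4 to 9.3, with 2 libraries under 8. Neuronal miRNAs (miR-124, miR-9, miR-128, miR-137 and miR-138, 12 of 12 arms counted) summed to between 157467 and 611390 CPM, the reads per 1000000 scaled reads, over the 36 libraries. A pair of IL libraries stood apart. The IL library of withdrawal rat M153 had 8.43 log2 CPM of miR-187-3p, which was at 5.50 to 7.43 in the other IL libraries and at 10.22 to 11.08 in the NAc. The IL library of abstinence rat M170 had the lowest total of all. Values without these rats are given beside some of the results they touch, and not for the difference between PL and IL.

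rno-miR-490-3p was higher in both cortical regions than in the NAc in each of the 12 rats. In the PL its level was 188 CPM at the lowest, 222 at the median and 300.1 at the highest (12 libraries). In the IL it was 134, 178 and 248 CPM. In the NAc it was 55.3, 85.6 and 119 CPM. The lowest cortical library of 24, the IL of M170, thus lay above the highest NAc library, that of abstinence rat M472.

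**Figure D1:**
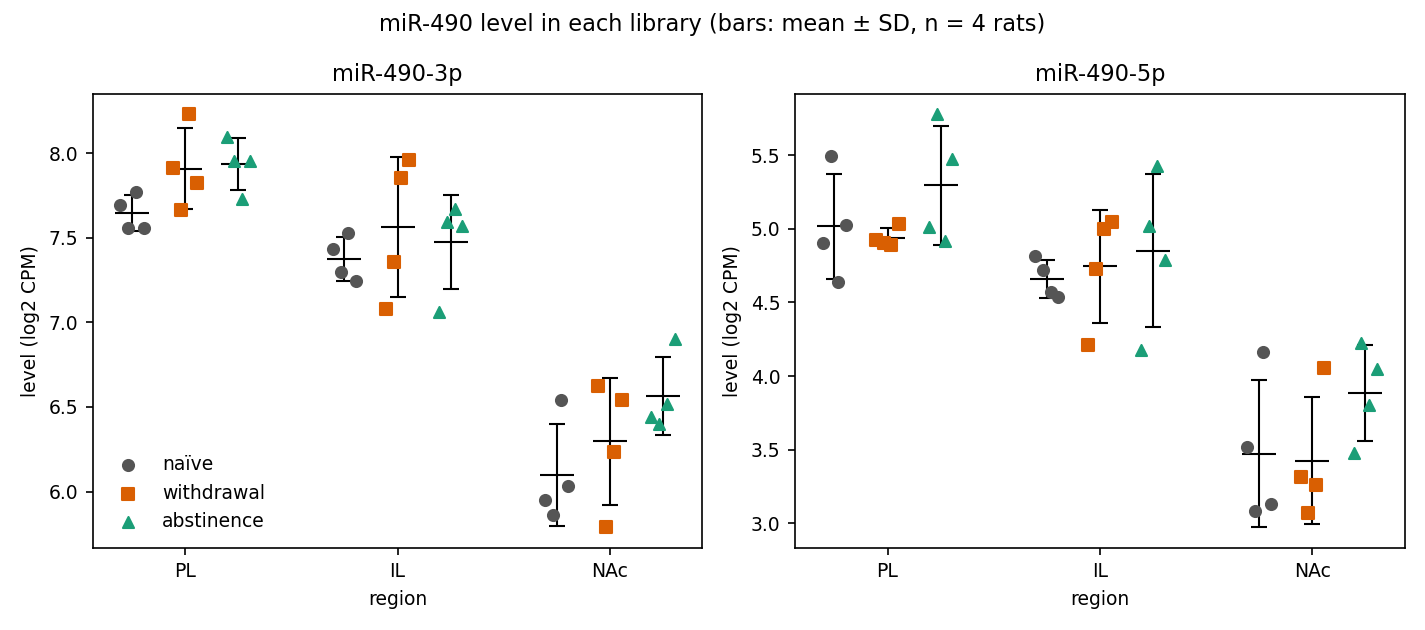
Level of miR-490-3p (left) and miR-490-5p (right) in log2 CPM in each of the 36 libraries, by region and cocaine group; a bar is the mean ± SD of 4 rats. In the left panel all 24 cortical points lie above all 12 NAc points, while the 3 groups overlap within every region.

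On the log2 CPM scale the 3p arm had a mean level of 7.83 ± 0.21 in the PL, 7.47 ± 0.28 in the IL and 6.32 ± 0.34 in the NAc (SD, n = 12 rats). The order PL, IL, NAc held for these means. PL and IL were neighbours whose ranges overlapped, from 7.56 to 8.23 in the PL and from 7.06 to 7.96 in the IL. Counting error was small next to this spread: the counts of the 3p arm ran from 635 to 4262 per library, for which the half-width of the exact 95% Poisson interval was 3.01% to 7.86% (counting error only, since PCR copies are not separate molecules).

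Within a rat, the PL exceeded the NAc by 1.51 ± 0.29 on the log2 scale (SD, n = 12), with all 12 rats between 1.06 and 1.99. The IL exceeded the NAc by 1.15 ± 0.39, with all 12 rats between 0.46 and 1.62, and the smallest difference was that of M153. For the mean of PL and IL against the NAc the difference was 1.33 ± 0.31, which is a 2.51-fold higher level, and single rats ran from 1.82-fold to 3.50-fold. Without M153 and M170 the difference was 1.39 ± 0.29 (SD, n = 10 rats). Cortex exceeded the NAc by 1.41 ± 0.23 in naïve rats, 1.44 ± 0.42 in withdrawal rats and 1.14 ± 0.21 in abstinence rats (SD, n = 4 each), ranges that overlapped.

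The difference between the cortical regions was smaller and less uniform. PL exceeded IL by 0.36 ± 0.31 (SD, n = 12) in the 3p arm, and it did so in 11 of the 12 rats. In withdrawal rat M366 the PL lay below the IL by −0.13. The naïve rats were close to each other, at 0.24 to 0.31, whereas the abstinence rats ran from 0.06 to 1.04, the highest being M170. Withdrawal rat M153 came next of all rats, at 0.83. The IL libraries of M170 and M153 were those that stood apart, and no mean without them was taken. None of the 457 tested miRNAs was higher in the PL in all 12 rats (0%).

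**Figure D2:**
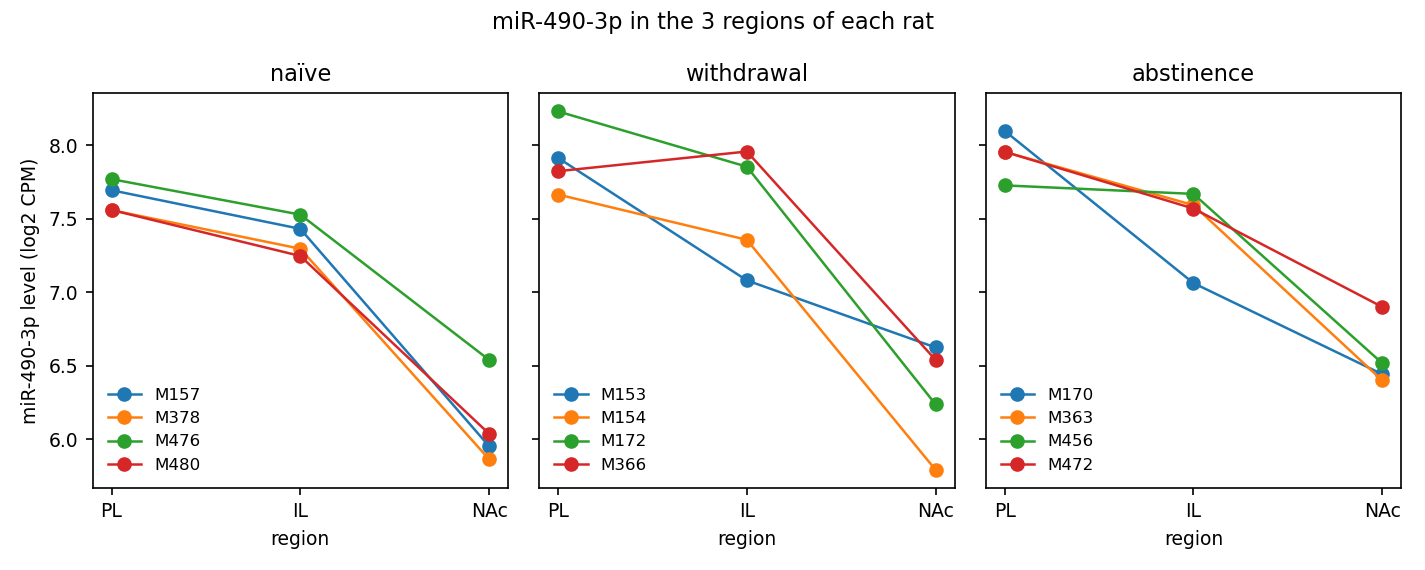
Level of miR-490-3p (log2 CPM) in the PL, IL and NAc of each rat, with 1 line per rat and 1 panel per cocaine group. Each line falls from cortex to the NAc; the line of withdrawal rat M366 alone rises from PL to IL, and the lines of M153 and M170 drop the most from PL to IL.

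The 5p arm was less abundant and had a like regional pattern. Its level in the PL was 24.8 CPM at the lowest, 31.3 at the median and 54.8 at the highest. In the IL it was 18.1, 27.0 and 42.9 CPM, and in the NAc 8.37, 11.2 and 18.6 CPM. The lowest cortical libraries, the IL of M170 and of M153, lay just below the highest NAc library, that of abstinence rat M363. Within a rat, cortex exceeded the NAc by 1.32 ± 0.42 on the log2 scale (SD, n = 12) in 12 of 12 rats, and PL exceeded IL by 0.33 ± 0.44 in 9 of 12 rats. Counts of the 5p arm ran from 92 to 615, and the half-width of the exact 95% Poisson interval was 7.99% to 21.0%.

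Among the 457 tested miRNAs, the 3p arm ranked 143 and the 5p arm 239 by mean log2 CPM. Their cortex minus NAc differences ranked 29 and 30 from the top. In 21 of the 457 miRNAs (4.6%) all cortical libraries lay above all NAc libraries, and the 3p arm was 1 of these while the 5p arm was not. In 12 miRNAs (2.63%) all cortical libraries lay below. The 3p arm was chosen for its regional level, so nothing is read from its place in these counts.

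**Figure D3:**
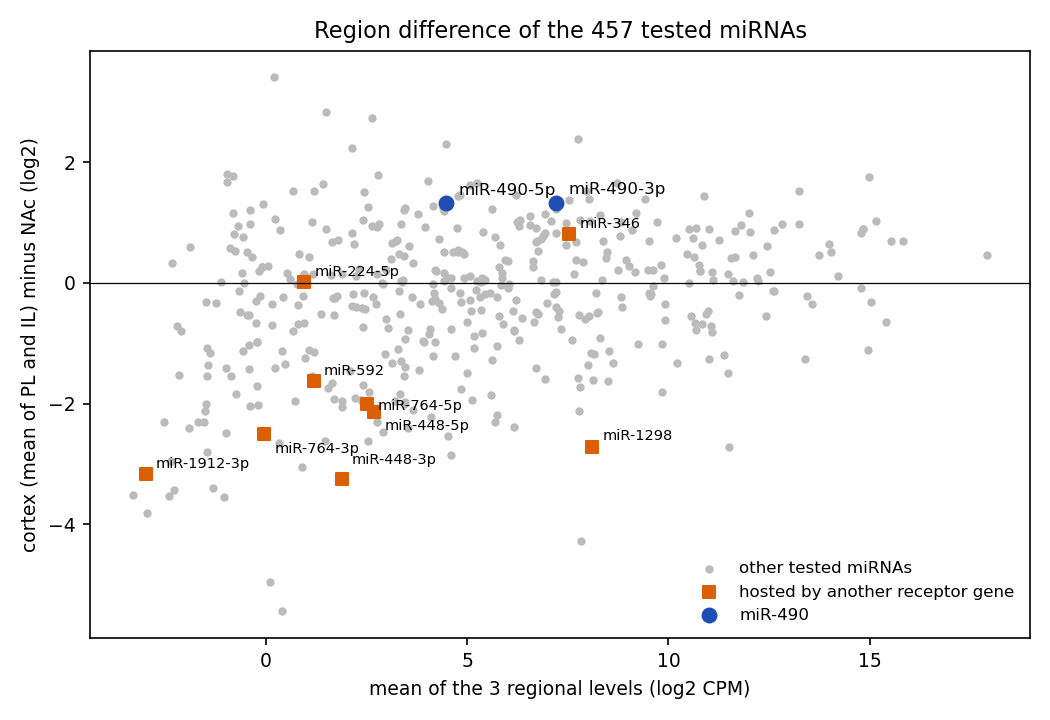
Cortex (mean of PL and IL) minus NAc difference in log2 CPM against the mean of the 3 regional levels, for the 457 tested miRNAs (1 point each). Both arms of miR-490 (blue) lie near 1.3 above 0, while the miRNAs hosted by Htr2c (among the orange squares) lie at −2.001 or lower.

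Lists of miRNAs known from other cell types were summed in each region. Muscle and heart miRNAs (8 of 14 arms counted) were low, at 54.1 to 134 CPM in the PL, 60.3 to 135 in the IL and 32.0 to 96.2 in the NAc, and the 5p arms of miR-1, miR-133b, miR-206, miR-208a and miR-208b and the 3p arm of miR-499 were at 0. Oligodendrocyte miRNAs (miR-219 and miR-338, 5 of 5 arms counted) were at 1134 to 5239 CPM in the PL, 1682 to 5257 in the IL and 3652 to 5283 in the NAc. Vessel wall miRNAs (6 of 7 arms, with miR-126b at 0) were at 1529 to 8561, 1565 to 5664 and 2495 to 13463 CPM. These tissue-wide differences run beside the regional levels of miR-490, and their part in them was not tested.

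Of the other lists, choroid plexus and ependyma miRNAs (9 of 10 arms, with miR-449a-3p at 0) were at 1141 to 1911.9 CPM in the PL, 1168 to 2844 in the IL and 1548 to 2610 in the NAc. The highest IL value was that of M153. Immune cell miRNAs (8 of 8 arms) were at 701 to 1431, 693 to 1218 and 528 to 842 CPM. Epithelial miRNAs (8 of 9 arms, with miR-200c-5p at 0) were at 9.54 to 846 CPM in the PL, 9.004 to 71.002 in the IL and 9.09 to 527 in the NAc, with medians of 14.01, 15.4 and 14.4 CPM. Withdrawal rat M172 had the highest value in each region and stood apart in the PL and NAc, and its PL library also had the highest level of the 3p arm. The part of this in the level of miR-490 was not tested, and changes without M172 are given with the group comparisons. Of the neuronal list, the medians were 375174, 293532 and 271096 CPM in the same order. This sum was mostly miR-128-3p, at mean levels of 18.28, 17.84 and 17.60 log2 CPM. Arms of the list did not share 1 order of regions. miR-124-3p was at 12.62, 12.70 and 12.05, miR-137-3p at 2.35, 1.62 and 4.30, and miR-138-5p at 8.10, 8.02 and 8.56 log2 CPM. The IL library of M170, where the 3p arm was lowest among the cortical libraries, also had the lowest neuronal sum and the highest oligodendrocyte sum of the IL libraries, at 159899 and 5257 CPM. The IL library of abstinence rat M456 had a nearly equal neuronal sum, 162511 CPM, and the highest 3p level of the abstinence rats there. That of naïve rat M476 had a nearly equal oligodendrocyte sum, 5065 CPM, and the highest 3p level of the naïve rats there. The part of tissue composition in the level of M170 was not tested.

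The question of the design was whether miRNA levels differ after short withdrawal or after 4 weeks of abstinence. Neither arm of miR-490 was called in any comparison of groups, where a call was a fold change of 1.5 or more together with an unadjusted p under 0.05. These thresholds were set to those of the study. All p-values for fold changes are from edgeR's quasi-likelihood test with RIN as a covariate, adjusted by Benjamini-Hochberg over all tested miRNAs, and fold changes are relative to that covariate. The exact permutation test compared log2 CPM of 4 rats with 4, two-sided, and could not give a p below 0.0286. The 3 comparisons share groups of rats and are not independent of each other. Within each region, and in the sums over regions, the groups overlapped for both arms. The share of miRNAs whose groups did not overlap was 2.19% in the PL, 7.44% in the IL, 1.09% in the NAc and 1.45% in the sums for withdrawal vs. naïve. It was 1.53%, 7%, 1.75% and 3.73% for abstinence vs. naïve, and 5.47%, 3.94%, 0.219% and 2.07% for abstinence vs. withdrawal, in the same order.

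In the PL, the 3p arm stood at 207, 188, 218 and 189 CPM in the naïve rats M157, M378, M476 and M480. It stood at 241, 226, 300.1 and 203 CPM in the withdrawal rats M153, M366, M172 and M154. It stood at 274, 248, 248 and 212 CPM in the abstinence rats M170, M363, M472 and M456. Cocaine rats were mostly above naïve rats, but the lowest rat of each cocaine group lay below the highest naïve rat. For withdrawal vs. naïve, log2FC = 0.29 (SE 0.20, edgeR p = 0.148, adjusted p = 0.643, exact permutation p = 0.0857), where 4.81% of miRNAs were called. Without M172 the value was 0.21 (edgeR adjusted p = 0.725). For abstinence vs. naïve, log2FC = 0.26 (SE 0.20, edgeR p = 0.200, adjusted p = 0.917, exact permutation p = 0.0571), where 2.41% were called. The 95% intervals of the fold, 0.927 to 1.62 and 0.904 to 1.59, held both no change and a rise past 1.5-fold.

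In the IL, the naïve rats were at 172.5, 157.02, 184.4 and 151.7 CPM of the 3p arm, in the same order of rats. The withdrawal rats were at 135, 248, 231 and 164 CPM. The abstinence rats were at 134, 193, 189.8 and 203 CPM. Naïve rats sat close together, while each cocaine group had 1 rat below all of them, M153 and M170. For withdrawal vs. naïve, log2FC = 0.19 (SE 0.20, edgeR p = 0.349, adjusted p = 0.688, exact permutation p = 0.400), where 6.35% of miRNAs were called. For abstinence vs. naïve, log2FC = 0.07 (SE 0.20, edgeR p = 0.739, adjusted p = 0.930, exact permutation p = 0.543), where 8.32% were called. Leaving out 1 rat at a time moved the first value between 0.08 and 0.40, the highest being without M153, and the second between −0.02 and 0.16.

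In the NAc, the naïve rats were at 61.8, 58.2, 92.9 and 65.6 CPM of the 3p arm. The withdrawal rats were at 98.5, 92.9, 75.3 and 55.3 CPM. The abstinence rats were at 86.9, 84.3, 119 and 91.5 CPM. All 4 abstinence rats lay above 3 of the 4 naïve rats, and the naïve rat M476 lay among them. For abstinence vs. naïve, log2FC = 0.45 (SE 0.20, edgeR p = 0.0299, adjusted p = 0.887, exact permutation p = 0.114), a 1.36-fold higher level with a 95% interval of 1.03 to 1.80, where 1.09% of miRNAs were called. It did not reach 1.5-fold. Without M476 it was 0.65 (edgeR adjusted p = 0.854), which passed the thresholds for a call but not the adjustment. That was the highest value with 1 rat left out, and the lowest was 0.32. For withdrawal vs. naïve in the NAc, log2FC = 0.23 (SE 0.20, edgeR p = 0.253, adjusted p = 0.840, exact permutation p = 0.429), where 2.84% were called.

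**Figure D4:**
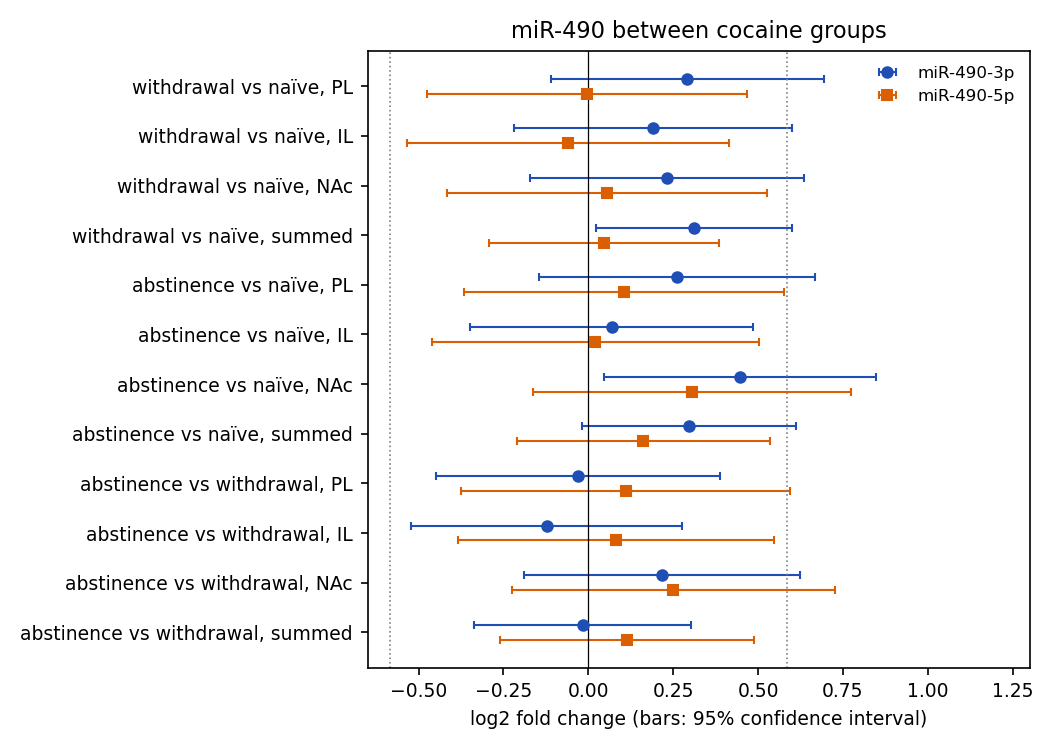
log2 fold change of miR-490-3p (blue circles) and miR-490-5p (orange squares) between cocaine groups in each region and in the counts summed over the regions of a rat, from edgeR; bars are 95% confidence intervals and dotted lines mark 1.5-fold. The interval of the 3p arm leaves 0 outside for abstinence vs. naïve in the NAc and for withdrawal vs. naïve in the summed counts, and no value passes 1.5-fold.

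Abstinence and withdrawal rats were set against each other in the same way. The 3p arm had log2FC = −0.12 in the IL (SE 0.20, edgeR p = 0.536, adjusted p = 0.851, exact permutation p = 0.714), where 6.35% of miRNAs were called. In the PL, log2FC = −0.03 (SE 0.20, edgeR p = 0.881, exact permutation p = 0.886), where 3.5% were called, and in the NAc, log2FC = 0.22 (SE 0.20, edgeR p = 0.285, adjusted p = 0.999, exact permutation p = 0.343), where 0.875% were called. All 4 abstinence rats lay within the range of the withdrawal rats in the PL, and 3 of 4 did in the IL (not M170) and in the NAc (not M472).

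When the counts of the 3 regions of a rat were summed, the 3p arm in naïve rats was at 6.96, 7.01, 7.31 and 6.94 log2 CPM (M157, M378, M476, M480). Withdrawal rats were at 7.31, 7.51, 7.52 and 7.12 (M153, M366, M172, M154), and abstinence rats at 7.26, 7.51, 7.51 and 7.35 (M170, M363, M472, M456). Naïve rat M476 overlapped with both cocaine groups, and the other 3 naïve rats lay below all 8 cocaine rats. For withdrawal vs. naïve, log2FC = 0.31 (SE 0.13, edgeR p = 0.0362, adjusted p = 0.924, exact permutation p = 0.0571), where 2.28% of 483 miRNAs were called, and without M172 the value was 0.25 (edgeR adjusted p = 0.999). For abstinence vs. naïve, log2FC = 0.30 (SE 0.15, edgeR p = 0.0640, adjusted p = 0.999, exact permutation p = 0.0571), where 0.414% were called, and for abstinence vs. withdrawal, log2FC = −0.02 (SE 0.15, edgeR p = 0.912, exact permutation p = 0.771), where 0.621% were called.

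The sum weights a region by its depth, and the PL supplied 33.9% to 43.4% of a withdrawal rat's counts 32.5% to 37.2% of an abstinence rat's and 26.1% to 31.4% of a naïve rat's. With each region weighted equally, as the mean of log2 CPM over the regions, withdrawal exceeded naïve rats by 0.22 (7.26 ± 0.24 against 7.04 ± 0.17, SD, n = 4, exact permutation p = 0.229). Abstinence exceeded naïve rats by 0.28 (7.32 ± 0.11, exact permutation p = 0.0571, adjusted over 6 such tests 0.343). The part of PL depth in the summed values was not tested otherwise.

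Whether the change differed between regions was tested as a difference of changes. For abstinence vs. naïve, the change of the 3p arm in cortex minus that in the NAc was −0.28 (SE 0.24, edgeR adjusted p = 1.00), where 1.97% of miRNAs were called. The same difference for withdrawal vs. naïve was 0.01 (SE 0.24, adjusted p = 1.00), where 1.97% were called, and for abstinence vs. withdrawal −0.29 (SE 0.24, adjusted p = 1.00), where 1.09% were called. For the change in IL minus that in PL the values were −0.10 for withdrawal vs. naïve (edgeR adjusted p = 0.887), −0.19 for abstinence vs. naïve (adjusted p = 0.856) and −0.09 for abstinence vs. withdrawal (adjusted p = 0.983), where 9.85%, 8.32% and 2.63% were called. No such difference passed, and the intervals were wide, for example 0.583 to 1.16 in fold for abstinence vs. naïve in cortex against the NAc.

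The 5p arm did not pass in any of these comparisons either. In the PL it was at 29.9, 45.0, 24.8 and 32.6 CPM in the naïve rats, 30.3, 32.7, 29.6 and 29.9 CPM in the withdrawal rats and 32.2, 54.8, 44.5 and 30.1 CPM in the abstinence rats, each in the order of rats given above. The withdrawal rats lay close together within the wider span of the naïve rats, and M172 and M154 lay just below the lowest abstinence rat, M456. In the IL it was at 28.1, 26.3, 23.7 and 23.2 CPM in naïve, 18.5, 33.0, 31.9 and 26.5 CPM in withdrawal and 18.1, 32.4, 27.5 and 42.9 CPM in abstinence rats. In the NAc it was at 11.4, 8.43, 17.9 and 8.71 CPM in naïve, 9.92, 16.6, 9.51 and 8.37 CPM in withdrawal and 11.1, 18.6, 16.5 and 13.9 CPM in abstinence rats. The groups overlapped in every region, as they did for the 3p arm. Its largest change was abstinence vs. naïve in the NAc, log2FC = 0.31 (SE 0.23, edgeR p = 0.193, adjusted p = 0.887, exact permutation p = 0.229), and its other regional changes between groups lay between −0.06 and 0.25. These values depended on the RIN covariate: for example, without it abstinence vs. withdrawal in the PL was 0.40 (0.11 as fitted with RIN, edgeR adjusted p = 0.781 without it) and abstinence vs. naïve in the PL was 0.29 (0.11 with RIN, adjusted p = 0.967 without it).

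Over all tested miRNAs few results outlasted the adjustment. At an adjusted p under 0.05, edgeR called 1 miRNA in abstinence vs. withdrawal in the IL and 0 in the other regional and summed comparisons, limma-voom called 0 in each, and DESeq2 called 1 each in abstinence vs. naïve in the IL and in abstinence vs. withdrawal in the IL and the PL. At an unadjusted p under 0.05, edgeR had between 6 and 53 miRNAs per region and comparison.

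The arms were compared as reads of the 3p arm per read of the 5p arm in the same library. Each read stands for 1 whole mature miRNA, so length does not enter, and how evenly the library kit captures the sequences was not tested. Over the 36 libraries there were 6.64 reads of the 3p arm per read of the 5p arm (log2 ratio 2.73 ± 0.30, SD), with single libraries between 4.19 and 10.2. The ratio was alike in level in the regions, with log2 ratios of 2.75 ± 0.38 in the PL, 2.72 ± 0.20 in the IL and 2.73 ± 0.31 in the NAc (SD, n = 12). The regional difference of miR-490 was thus present in both strands of the duplex to a similar size.

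Between groups, the log2 ratio averaged over the regions of a rat was 2.66 ± 0.15 in naïve, 2.89 ± 0.20 in withdrawal and 2.65 ± 0.28 in abstinence rats (SD, n = 4). Withdrawal exceeded naïve rats by 0.23 (exact permutation p = 0.171, adjusted over 12 tests of the ratio 0.571). None of the 12 tests, by region and for the mean, passed, and the lowest adjusted p was 0.571.

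The 5p arm and the ratio moved with RNA integrity in the PL. Over the 12 rats, with the mean of each cocaine group removed, RIN and the level of the 5p arm in the PL had Pearson's r = −0.85 (exact permutation within groups p = 0.000289, adjusted over 21 relations p = 0.00608) and Spearman's rho = −0.88 (p = 0.00231, adjusted p = 0.0243, exact permutation). Without M363 and M456, the rats farthest from the median once group means were removed, r was −0.77, and without M363 and M172, farthest from the median of RIN itself, it was −0.84. Only 2 of the 457 miRNAs, the 5p arm included, had an r of this size or more with RIN in the PL (0.438%), and the median size over all miRNAs was 0.27.

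For the 3p arm in the PL, r with RIN was 0.22 (exact permutation p = 0.513) and rho was 0.44 (exact permutation p = 0.161). It was 0.86 without M363 and M456 and 0.31 without M363 and M172, so the value for the 3p arm rested on which rats were included, and the difference between the arms in this relation was not tested apart from the ratio. The log2 ratio of 3p to 5p rose with RIN in the PL, with r = 0.81 (exact permutation p = 0.000868, adjusted p = 0.00911), rho = 0.88 (exact permutation p = 0.000289, adjusted p = 0.00608) and r = 0.94 without M363 and M456 or 0.82 without M363 and M172. The relation of the ratio was chosen after that of the 5p arm was seen and shares its counts.

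**Figure D5:**
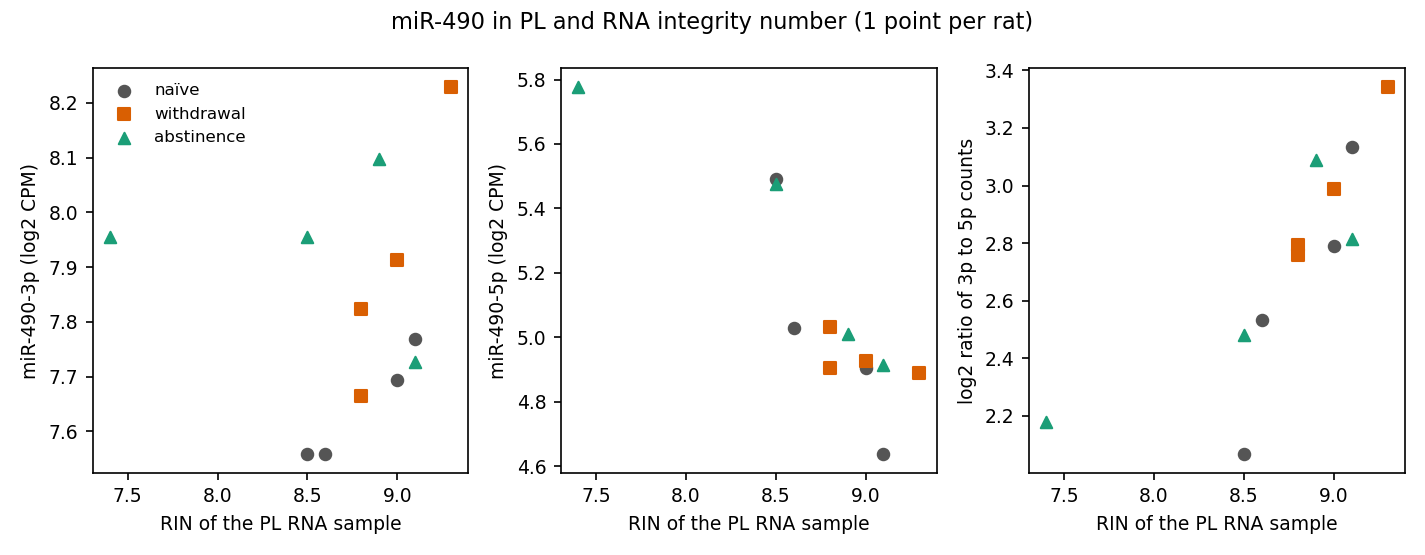
Level of miR-490-3p (left) and miR-490-5p (middle) in log2 CPM, and the log2 ratio of 3p to 5p counts (right), against the RIN of the PL RNA sample, with 1 point per rat and the cocaine group as colour and marker. The 5p arm is highest at the lowest RIN and the ratio rises with RIN. For the 3p arm, r with RIN is 0.22 over all 12 rats, from values with group means removed, which the plotted points still hold. It is 0.86 without M363 and M456 but 0.31 without M363 and M172.

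The relation was weaker in the other regions. In the NAc the 5p arm had r = −0.62 with RIN (exact permutation p = 0.0472, adjusted p = 0.198) and −0.26 without M476 and M363, so it rested on those rats, and 22.5% of miRNAs had an r of at least this size there. In the IL, r was −0.33 (exact permutation p = 0.494). Whether the relation differs between the regions was not tested. RIN was a covariate of every edgeR fold change above, with 1 slope for all regions.

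The level of the 3p arm was also set against the total count of the library. In the IL, r between the log2 total and the level was 0.59 (exact permutation p = 0.0242, adjusted p = 0.170; rho = 0.55), and 0.48 without M170 and M472. In the NAc, r was 0.69 (exact permutation p = 0.0387, adjusted p = 0.198; rho = 0.62), and 0.44 without M154 and M378. In the PL, r was −0.37 (exact permutation p = 0.446), and 0.04 without M366 and M172. None of these passed the adjustment.

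A rat with a high level in 1 region did not clearly have a high level in the others. For the 3p arm, r within groups was 0.09 between PL and IL (rho = 0.16), 0.20 between IL and NAc (rho = 0.29) and 0.31 between PL and NAc (rho = 0.29), with exact permutation p-values of 0.844, 0.645 and 0.450. Without the rats farthest from the median, r was −0.37 between PL and IL (without M172 and M154), 0.60 between IL and NAc (without M153 and M170) and 0.21 between PL and NAc (without M172 and M154). For the 5p arm the values were 0.10, 0.31 and −0.03.

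Other miRNAs were ordered by how closely their log2 CPM followed that of the 3p arm over the 36 libraries, among 390 miRNAs with a mean log2 CPM of at least 0. These correlations are descriptions: the libraries share 12 rats, 3 regions and the same totals, and most of the likeness is the cortex to NAc difference itself. The 5p arm came first, with r = 0.92. It was followed by miR-146b-3p (r = 0.90), miR-205 (r = 0.90), miR-125b-2-3p (r = 0.89), miR-184 (r = 0.88), miR-128-2-5p (r = 0.86), miR-125b-5p (r = 0.86), miR-135a-3p (r = 0.85), miR-671 (r = 0.85) and miR-130b-5p (r = 0.82). The median over all 390 was −0.04.

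These miRNAs shared the direction of the regional difference but not its size. miR-205, known from epithelium, stood 2.74 higher in cortex than in the NAc on the log2 scale, and miR-128-2-5p, an arm of a neuronal miRNA, stood 2.38 higher. miR-125b-5p, an abundant miRNA of the brain, stood 0.89 higher, and miR-130b-5p stood 0.73 higher. The most opposite profiles were those of miR-187-3p (r = −0.89), miR-187-5p (r = −0.88), miR-448-5p (r = −0.87), miR-448-3p (r = −0.87) and miR-653-3p (r = −0.86). With Spearman's rho, 5 of the 10 most alike were shared, and without a scaling factor 8 were.

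After the mean of each of the 9 combinations of group and region was removed, the miRNAs most like the 3p arm were miR-130b-5p (r = 0.68), miR-146b-3p (r = 0.62), miR-299a-3p (r = 0.59), the 5p arm (r = 0.58) and miR-135b-3p (r = 0.53). The most opposite were miR-505-3p (r = −0.55), miR-103-3p (r = −0.53) and miR-505-5p (r = −0.53). miR-130b-5p and miR-146b-3p were thus near the top of both orders. The 5p arm, cut from the same hairpin, ranked 4 here, and the median over all miRNAs was 0.00310.

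miR-490 is 1 of a number of miRNAs that lie within genes for neurotransmitter receptors. Of the others listed for this comparison, 9 arms were tested, miR-1264 and miR-452 were not in the table, miR-1912-5p had 0 counts in all libraries and miR-224-3p had 1. All 6 tested arms hosted by Htr2c, the gene of the serotonin 2C receptor, were lower in cortex than in the NAc in 12 of 12 rats. Their differences ran from −2.001 for miR-764-5p to −3.25 for miR-448-3p on the log2 scale. Those of miR-1912-3p (−3.17) and miR-764-3p (−2.51) rested on few reads, with 103 and 708 counts over all libraries. miR-592, hosted by the glutamate receptor gene Grm8, was lower by −1.63 ± 0.87 (SD, n = 12) in 12 of 12 rats.

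In the same direction as miR-490, miR-346, hosted by the glutamate receptor gene Grid1, was higher in cortex by 0.80 ± 0.26 (SD, n = 12) in 12 of 12 rats, and it was higher in the IL (7.99) than in the PL (7.61 log2 CPM). miR-224-5p, hosted by the GABA-A receptor gene Gabre, differed by 0.01 ± 0.99. miR-490 had the largest cortical excess of the list, which follows from how it was chosen.

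Between groups, 3 of the 9 arms were called higher in withdrawal vs. naïve in the IL, where 6.35% of all miRNAs were called in either direction. They were miR-448-3p (log2FC = 0.84, SE 0.39), miR-448-5p (log2FC = 0.79, SE 0.36) and miR-764-5p (log2FC = 1.00, SE 0.47), each with an edgeR adjusted p of 0.489. The median of the 9 was 0.74, beside −0.02 over all tested miRNAs. All 3 called arms, and most of the 9, were hosted by Htr2c, so these values do not stand for separate receptor genes. Without M153, the rat whose IL library was high in miR-187-3p, 0 of the 9 were called there by edgeR, and the values of these arms were 0.40, 0.24 and 0.07 in the same order, each still above 0. This removal was chosen after the library was seen.

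In abstinence vs. withdrawal in the IL, 3 of the 9 were called lower, where 6.35% of all miRNAs were called in either direction. They were miR-1298 (log2FC = −1.19, edgeR adjusted p = 0.323), miR-448-3p (log2FC = −1.21, adjusted p = 0.305) and miR-764-5p (log2FC = −1.45, adjusted p = 0.305), all hosted by Htr2c. Without M153 only miR-448-3p was called (log2FC = −0.83, edgeR adjusted p = 0.884), and miR-1298 and miR-764-5p were at −0.54 and −0.62. In the summed counts, miR-764-5p was lower in abstinence than in withdrawal rats (log2FC = −0.76, edgeR adjusted p = 1.00) and, at −0.53 without M153, no longer reached 1.5-fold. Of the 483 miRNAs tested in the summed counts, 0.621% were called in that comparison. In the other regional comparisons none of the 9 was called, in the PL and NAc as for miR-490. In the IL library of M153 both arms of miR-490 were low for a cortical library while these NAc-high miRNAs were raised in its group, and the part of tissue composition in this was not tested.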

How the data were processed

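Small RNA from 36 bulk samples (12 rats, 3 regions) was sequenced by the authors from NEBNext small RNA libraries, and reads were counted per mature miRNA with CAP-miRseq on rn6 per the study's methods, while the submitters' processing notes name mRatBN7.2 and rn7. The authors deposited raw read counts of 723 mature miRNAs (95 were at 0 throughout), and the counting strand and the treatment of reads shared by near-identical miRNAs are not given in the sources used here. Groups and regions came from the sample labels. Libraries were tied to rats through the study's sample list, by number, region and RIN for 35 libraries and by elimination for the NAc library of naïve rat M480. No 2 libraries of the same group and region (54 pairs) agreed within sampling noise.

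Counts were filtered with filterByExpr (minimum count 10, minimum total 15; 457 miRNAs, 100.0% of counts), scaled by TMM and tested with edgeR 4.0.16 (R 4.3.3) by the quasi-likelihood test on all 36 libraries, with 1 mean per combination of group and region and RIN as a covariate. Regions were also summed per rat (483 miRNAs tested). The study used limma-voom with the same filter function, scaling and covariate, though it kept fewer miRNAs than were tested here, which bears on the adjusted p-values and called shares. It was run here (limma 3.58.1) as an alternative beside DESeq2 1.42.0, since whole counts were at hand. Levels are log2 CPM with a prior count of 0.5. The edgeR fit of the 36 libraries was run on simulated counts with known changes, for withdrawal vs. naïve in the IL. The simulated libraries were independent, so libraries paired by rat were not covered. Exact permutation tests ran in scipy 1.17.1, those of relations over all 13824 orders of rats within groups. RNAfold 2.7.2 folded the hairpin.

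Named miRNAs were the arms of miR-490, the 10 most and 5 least alike to the 3p arm over all libraries, the 5 most and 3 least alike within groups and regions, and the tested miRNAs of receptor genes. The members and all lists were chosen with earlier results of these data known. The 5p arm, the ratio of the arms, the equal weighting of regions the removal of M153 from the receptor gene list and the removal of the rats farthest from the median of RIN itself were added after the data were seen. Where nothing ties rats to separate cohorts or litters, the p-values measure only the spread between these rats. The study sequenced 12 libraries per pool, and the sources used here do not say which libraries shared a pool. If pools followed the cocaine groups, pool and group cannot be told apart. In the PL, library totals were 7517269 to 9911807 in naïve rats and 11372613 to 18877136 in withdrawal rats.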

Additional observations from a re-analysis of the deposited data

Results flagged for a closer look

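The level of miR-490-3p in the IL of abstinence rat M170 was 7.06 log2 CPM, and the other abstinence rats were at 7.57 to 7.67 there. The gap to the nearest of them was 0.836 of the range of the group, above Dixon's 95% critical value for 4 samples. It was the 1 such value in 27 groups of 4 (both arms and their ratio, by group and region), and chance flags about 1 group in 20. The library also had the lowest total and the lowest neuronal sum among the IL libraries, and its 5p arm, at 4.18, was the lowest in cortex. The IL library of M456 had nearly as low a neuronal sum, 162511 CPM, with the 3p arm at 7.67. The part of tissue composition in the value of M170 was not tested.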

How the results depend on the processing

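No arm of miR-490 reached an adjusted p under 0.05 under any setting run: the lowest was 0.511 over the other settings and 0.360 with 1 rat left out. For the 3p arm, 142 of 156 alternative values and 195 of 216 values with 1 rat left out kept their direction and their side of the thresholds, and 14 and 20 changed sign, each of a small change. Abstinence vs. withdrawal in the PL (−0.03 as reported) became 0.032 with RLE size factors, 0.051 without a scaling factor, 0.023 without the filter, 0.032 with DESeq2, 0.017 without the RIN covariate, 0.016 without the 2 libraries of RIN under 8 and 0.12 with the PL libraries alone. In the summed counts it became 0.033 without a scaling factor, 0.038 without RIN and 0.068 with equal weights, and abstinence vs. naïve in the IL became −0.041 with the IL libraries alone. The change in cortex minus that in the NAc for withdrawal vs. naïve (0.01 as reported) became −0.060 without a scaling factor. The causes were not tested.

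Libraries of the same rat were paired by a block. The correlation of libraries of a rat was 0.117 over all miRNAs, and with the rat as a random block (limma-voom) abstinence vs. naïve in the NAc was 0.44 (adjusted p = 0.871) and the cortex minus NAc change for withdrawal vs. naïve became −0.0027, or −0.025 with the rat as a fixed block (edgeR). The block changed no call. Leaving out 1 rat moved abstinence vs. naïve from −0.020 to 0.16 in the IL and from 0.32 to 0.65 in the NAc, the highest without naïve rat M476, the 1 value that passed the thresholds. It moved abstinence vs. withdrawal from −0.086 to 0.12 in the PL and from −0.11 to 0.054 in the sums. For withdrawal vs. naïve, it moved cortex minus NAc from −0.083 to 0.21 and IL minus PL from −0.30 to 0.082.

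For the 5p arm 0 of the comparisons were called under any setting, and the changes of sign among its values and those of the ratio, 59 in all, were of at most 0.26 in size. Of the 10 miRNAs most like the 3p arm, 5 were shared with Spearman's rho. With 4 rats a group, a 95% interval of the fold spanned, for abstinence vs. naïve in the NAc, 1.03 to 1.80 for the 3p arm and 0.893 to 1.71 for the 5p arm, which had fewer counts.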
